A study of Arabidopsis thaliana with 17 samples.

Results

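Roots of the Arabidopsis thaliana line KO1, in which part of the gene NBR1 was deleted, were compared with roots of the wild type Col-0 (WT). KO1 was made by CRISPR/Cas9 in the Col-0 background, and the transgene was crossed out afterwards. KO3, a further NBR1 deletion line made in the same way, was used to widen the estimate of the spread. All plants were 4 weeks old and had been kept in hydroponic boxes in short days on diluted Hoagland medium, with no stress or hormone treatment described for these samples, and each RNA was drawn from at least 3 plants. Affymetrix Arabidopsis Gene 1.1 ST arrays gave 3 arrays of KO1 roots, 3 of KO3 roots and 2 of WT roots (biological replicates 1 and 3). The comparison took the 5 KO1 and WT root arrays among the 17 arrays of the series, and all 18107 probe sets that could be named among the 28583 measured, each set standing for 1 transcript cluster of the array. Of the named probe sets 17349 were named for a single gene, and these covered 17155 different genes. Nothing in the labels says whether replicates were separate hydroponic batches, so the p-values measure only the spread between these RNA samples.

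NBR1 is a selective autophagy receptor: it binds ubiquitinated cargo and ATG8 proteins on the growing autophagosome membrane, and is itself degraded in the vacuole. Cytokinins are plant hormones perceived by histidine kinases, and type-A response regulators are a standard early readout, since their transcripts are induced by cytokinin and their proteins dampen the signal. The circadian clock sets daily rhythms of transcription, and many stress genes follow it. Dehydrins and other cold- or drought-induced proteins are known for their induction by abscisic acid (ABA), cold and water loss.

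The deletions were directed by the guide RNAs printed here, which give the targeted sites and not the deletion itself. They target NBR1 (AT4G24690) on chromosome 4, and are written 5′ to 3′, with the 10 bases nearest the PAM in capitals.
G144: ttacgagaaaAGCGGATTAC
G2: ggaaggaacaTCCCTGCTCA
G3: aattgagagcTGCCCTAGCT
Each guide has 20 bases. G144 was combined with G2 or with G3 in the plasmids, and which pair gave KO1 was not stated in the sources used here. The extent of the deletion in KO1 was not mapped here.

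NBR1 was the largest difference among the 18107 probe sets. Its log2 signal was 3.70, 3.26 and 3.70 in KO1 roots, 3.82, 4.59 and 3.87 in KO3 roots, and 7.41 and 7.23 in WT roots. Every KO1 array lay far below both WT arrays. The log2 fold change was -3.77 ± 0.24 (SE), a fall of 13.6-fold, with an adjusted p of 0.000138 by limma. It bore out the labels of all 5 arrays as deletion line or WT. The signal was low in KO3 roots too, so it was not used to tell KO1 from KO3. An exact two-sided permutation test of 3 against 2 arrays gave p = 0.2, the smallest p that this design allows. Where the probes lie relative to the deletion was not known, so the remaining signal was not read as transcript or as background. Because arrays measure RNA from whole roots, less transcript per cell and fewer cells of a type cannot be told apart for any gene below.

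**Figure D1:**
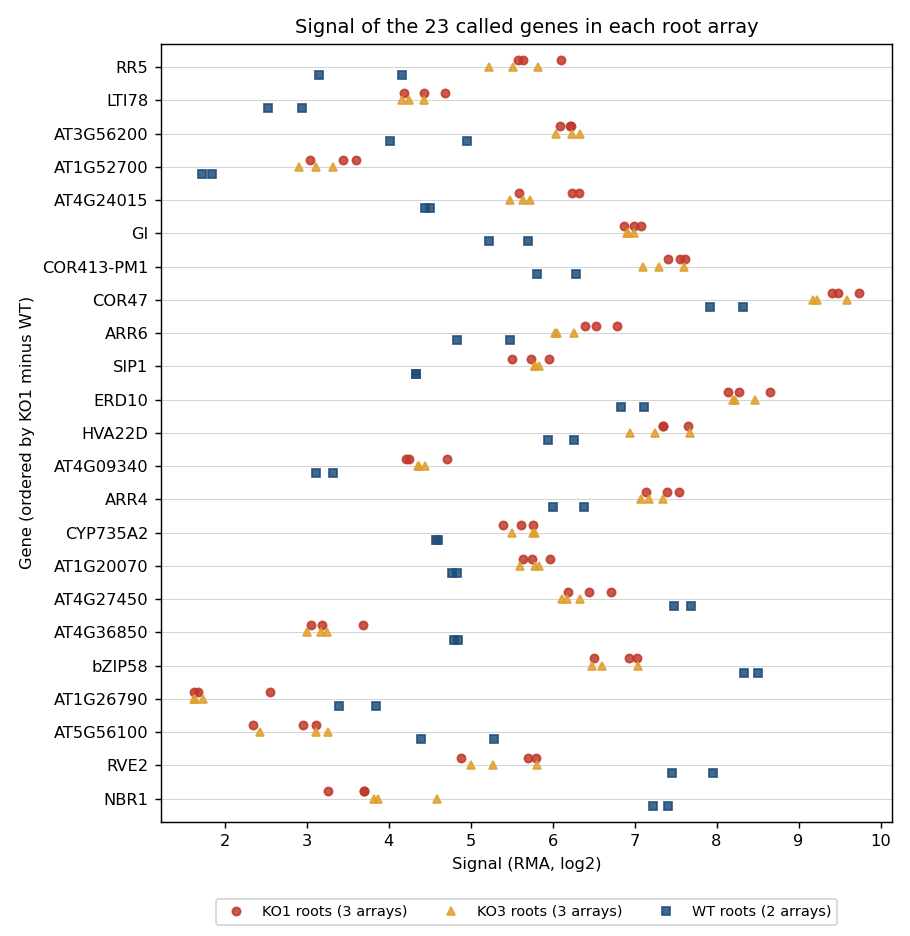
Log2 RMA signal (x axis) of the 23 called genes (y axis, ordered by the KO1 minus WT difference) in each root array, with KO1 as circles, KO3 as triangles and WT as squares. In every one of the 23 genes all 3 KO1 arrays lie beyond both WT arrays, and NBR1 at the bottom is separated the most. Among all 18107 probe sets the KO1 arrays lie all above WT in 2058 and all below in 2078.

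Among the 18107 probe sets, 16 rose and 7 fell in KO1 roots at an adjusted p under 0.05 (limma, Benjamini-Hochberg). These are 0.0884% and 0.0387% of the probe sets tested, or 0.127% together. The spread behind these calls was estimated from all 8 root arrays, KO3 included, and shared across genes. With only the 5 KO1 and WT root arrays 0 rose and 1 fell, NBR1, and with an unmoderated model on the 8 arrays none of the 23 passed. The study's own thresholds, an unadjusted p under 0.05 with a change of at least 1.5-fold, were met by 320 higher probe sets (1.77%) and 241 lower ones (1.33%). Some were copies of each other: up to 22 shared one set of root values, so that the 320 held 318 and the 241 held 218 different sets of values. The KO1 and WT arrays did not overlap in 288 of the 320 and in 216 of the 241. Among all 18107 probe sets they did not overlap in 2058 with KO1 above and 2078 with KO1 below. The thresholds pick probe sets with a difference large for its spread, so their separation is no further support. WT replicate 1 was the lower WT array in 245 of the 320 and the higher in 185 of the 241. The median difference over all named probe sets was 0.00 on the log2 scale.

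The probe set names came from 2 sources, which matters for every count below. The platform's table named 17504 probe sets, of which 7 rose and 5 fell. A further 603 were named only through the study's tables of genes changed in its NBR1 overexpressor, and 9 of these rose and 2 fell. A gene list that draws on those names therefore holds genes picked for a response to NBR1, and is not an even sample of its pathway.

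WT roots replicate 1 stood apart from the other root arrays. Its mean correlation with them was 0.978, against 0.983 to 0.987 for the other 7 arrays. Without it, the WT group is a single array that is assumed to vary like the other groups, and 0 probe sets rose and 1 fell, NBR1, at an adjusted p under 0.05 (limma), with 873 at an unadjusted p under 0.05. Without WT replicate 3 instead, 33 rose and 24 fell. All 23 called genes kept their direction in both cases, which was fixed beforehand, since all their KO1 arrays lay beyond both WT arrays. The tissue label was checked on markers: the 5 green-tissue markers measured averaged 1.88 to 1.98 in KO1 roots and 2.00 to 2.23 in WT roots (log2), against 6.22 to 7.75 in KO1 shoots and 7.68 to 7.71 in WT shoots. The single root marker measured, PHT1;1, a phosphate transporter, had 5.88 to 6.33 in KO1 roots and 5.98 to 6.38 in WT roots.

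**Figure D2:**
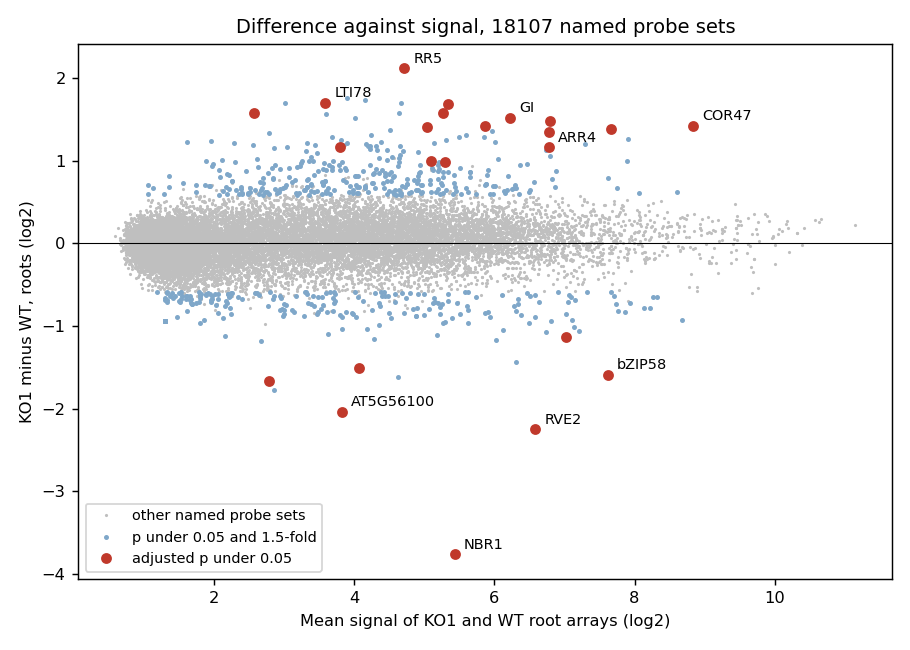
Difference between KO1 and WT roots (y axis, log2) against the mean signal of both groups (x axis, log2) for 18107 named probe sets. The 23 probe sets past an adjusted p of 0.05 are large circles, 16 above 0 and 7 below, and those past the study's thresholds are small blue points.

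Of the cytokinin response regulators measured, 3 rose. RR5 (AT3G48100, also ARR5), a type-A response regulator, had log2 signals of 6.10, 5.58 and 5.64 in KO1 roots and 3.15 and 4.16 in WT roots. It was the largest rise of the comparison, 2.12 ± 0.29 on the log2 scale or 4.34-fold (adjusted p = 0.0208), and the 2 WT arrays differed from each other by more than the 3 KO1 arrays did. Without WT replicate 1 its difference was 1.61. ARR6 (AT5G62920) had 6.78, 6.53 and 6.40 in KO1 roots, against 4.83 and 5.48 in WT roots, a log2 fold change of 1.42 ± 0.20 (adjusted p = 0.0293). ARR4 (AT1G10470) had 7.54, 7.14 and 7.40 in KO1 roots, against 6.01 and 6.38 in WT roots, a log2 fold change of 1.16 ± 0.17 (adjusted p = 0.0412). In both genes the groups were separate, and WT replicate 1 was the lowest array.

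Other type-A regulators did not pass the test. ARR15 differed by 0.49 ± 0.27 on the log2 scale, RR3 by 0.24 ± 0.24 and RR16 by 0.08 ± 0.17. KO1 and WT values overlapped in all 3. The signals of ARR15 and RR16 were 0.89 to 1.98 in these arrays, near the bottom of the scale. Over the whole cytokinin list of 20 measured genes the median log2 fold change was 0.05. Of the 20, 3 rose and 0 fell, against 0.0884% and 0.0387% of all probe sets. All 3 had been named through the overexpressor tables, which named 7 of the 20. IPT3, a cytokinin synthesis gene, differed by 0.00 ± 0.20, and CKX4, a cytokinin oxidase that degrades the hormone, by 0.55 ± 0.25. Outside that list, CYP735A2 (AT1G67110), the cytochrome P450 that makes trans-zeatin from its precursor, had 5.76, 5.39 and 5.62 in KO1 roots and 4.60 and 4.58 in WT roots. It rose by 1.00 ± 0.16 on the log2 scale (adjusted p = 0.0488), close to the threshold, and its difference without WT replicate 1 was 1.01. It was the only 1 of 37 cytochrome P450 genes to pass (0.0884% of all probe sets rose), and their median was -0.06. The overexpressor tables had named it, and 11 of the 37 in all.

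Clock genes moved in opposite directions. GI (AT1G22770, GIGANTEA), an evening-phased clock component that also acts in flowering, had 6.87, 6.99 and 7.08 in KO1 roots and 5.22 and 5.70 in WT roots. Its log2 fold change was 1.52 ± 0.16 (adjusted p = 0.0102), and it was 1.28 without WT replicate 1. RVE2 (AT5G37260, also CIRCADIAN 1), a MYB-like factor of the REVEILLE family, had 5.70, 5.80 and 4.88 in KO1 roots and 7.96 and 7.46 in WT roots. It fell by 2.25 ± 0.30 on the log2 scale, or 4.76-fold (adjusted p = 0.0208), the largest fall after NBR1. KO1 replicate 3 was the lowest array, and the groups were separate.

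The other 6 clock genes measured did not pass the test. COL9, a B-box protein, differed by -0.85 ± 0.19 (adjusted p = 0.154), TOC1 by 0.38 ± 0.17 and PRR5 by 0.20 ± 0.17 on the log2 scale. FKF1 and LKP2, blue-light F-box proteins, differed by -0.10 ± 0.15 and -0.26 ± 0.20, and ELF4 by -0.16 ± 0.20. The signals of FKF1 and ELF4 were 0.82 to 1.96 in KO1 and WT roots, near the bottom of the scale. Of the 8 clock genes 1 rose and 1 fell, against 0.0884% and 0.0387% of all probe sets, and the median was -0.14. All but GI, 7 of the 8, had been named through the overexpressor tables. The hour of harvest was not given in the sources used here, and its part in the clock genes was not tested.

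Genes of dehydration and cold formed the largest group among the rises. LTI78 (AT5G52310, also RD29A), a classic ABA-, cold- and drought-induced gene, had 4.19, 4.69 and 4.43 in KO1 roots and 2.94 and 2.53 in WT roots. It rose by 1.70 ± 0.19 on the log2 scale (adjusted p = 0.0102), and the difference was 1.91 without WT replicate 1. COR47 (AT1G20440), a dehydrin, had 9.48, 9.74 and 9.41 in KO1 roots and 7.92 and 8.32 in WT roots, a log2 fold change of 1.42 ± 0.19 (adjusted p = 0.0208). Its close relative ERD10 (AT1G20450), also a dehydrin, had 8.27, 8.65 and 8.14 in KO1 roots and 6.83 and 7.12 in WT roots, a log2 fold change of 1.38 ± 0.18 (adjusted p = 0.0208). The dehydrins are similar in sequence, so cross-hybridisation between this pair was not tested.

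The remaining rises of this group were of membrane protein and sugar genes. COR413-PM1 (AT2G15970), a cold-induced plasma membrane protein, had 7.41, 7.56 and 7.62 in KO1 roots and 5.81 and 6.28 in WT roots, a log2 fold change of 1.48 ± 0.19 (adjusted p = 0.0208). HVA22D (AT4G24960), a member of an ABA-induced membrane protein family, had 7.35, 7.65 and 7.35 in KO1 roots and 5.95 and 6.26 in WT roots, a log2 fold change of 1.34 ± 0.21 (adjusted p = 0.0488). SIP1 (AT5G40390, raffinose synthase 5), which makes the protective sugar raffinose, had 5.74, 5.96 and 5.51 in KO1 roots and 4.34 and 4.33 in WT roots. It rose by 1.40 ± 0.15 on the log2 scale (adjusted p = 0.0102), and the WT arrays agreed closely, so that the difference was 1.41 without WT replicate 1.

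Of the 39 measured genes of the ABA and dehydration list 6 rose and 0 fell, and 13 were higher at the study's thresholds, with 12 higher without WT replicate 1. Of all 18107 probe sets 0.0884% rose, and 1.77% were higher at those thresholds. The median of the list was 0.23 on the log2 scale over all 39. It was -0.06 over the 17 named by the platform's table, of which 1 rose, since 22 of the 39 were named through the overexpressor tables. Several classic members did not pass the test. COR15A had a log2 fold change of -0.18 ± 0.41, KIN1 of -0.06 ± 0.23, XERO1 of -0.19 ± 0.17 and the phosphatase gene HAI2 of 0.03 ± 0.14. Their signals were 0.99 to 1.82 in KO1 and WT roots, near the bottom of the scale, against array medians of 2.61 to 2.65. A fall could hardly show there. LTI30, a dehydrin, differed by 1.58 ± 0.41 (adjusted p = 0.253), and the transcription factor genes DREB2A and ABF1 by 1.16 ± 0.25 and 1.01 ± 0.30, without passing the test.

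A further 5 rises had only an identifier in the sources used here. AT3G56200 had 6.21, 6.09 and 6.22 in KO1 roots, against 4.02 and 4.96 in WT roots, and rose by 1.68 ± 0.23 on the log2 scale. Its WT arrays differed more than its KO1 arrays, and the difference was 1.21 without WT replicate 1. AT1G52700 had 3.44, 3.04 and 3.60 in KO1 roots, against 1.72 and 1.85 in WT roots, and rose by 1.58 ± 0.19. AT4G24015 had 6.32, 6.24 and 5.59 in KO1 roots, against 4.44 and 4.51 in WT roots, and rose by 1.58 ± 0.21. In both, the WT arrays agreed closely. AT4G09340 had 4.21, 4.25 and 4.71 in KO1 roots and 3.12 and 3.32 in WT roots, a rise of 1.17 ± 0.17. AT1G20070, the smallest of the 16 rises, which fell outside the naming rule and was named after its values were seen, had 5.97, 5.75 and 5.64 in KO1 roots and 4.77 and 4.84 in WT roots, a rise of 0.98 ± 0.15. The adjusted p of these 5 ranged between 0.0188 and 0.0451.

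Besides NBR1 and RVE2, 5 genes fell. The transcription factor gene bZIP58 (AT1G13600) had 6.93, 7.03 and 6.51 in KO1 roots and 8.33 and 8.50 in WT roots, and fell by 1.59 ± 0.21 on the log2 scale (adjusted p = 0.0208). It was the only 1 of 28 bZIP genes to fall (0.0387% of all probe sets fell), none rose, and their median was -0.04. AT5G56100, annotated as a glycine-rich protein or oleosin, a coat protein of oil bodies, had 2.96, 3.11 and 2.34 in KO1 roots and 5.28 and 4.40 in WT roots. It fell by 2.04 ± 0.32 (adjusted p = 0.0488), with a difference of -1.60 without WT replicate 1. AT1G26790 had 1.67, 2.55 and 1.63 in KO1 roots, near the bottom of the scale, and 3.84 and 3.40 in WT roots, and fell by 1.67 ± 0.26 (adjusted p = 0.0451). AT4G36850 had 3.19, 3.69 and 3.05 in KO1 roots and 4.85 and 4.80 in WT roots, and fell by 1.52 ± 0.19 (adjusted p = 0.0208). AT4G27450 had 6.44, 6.71 and 6.19 in KO1 roots and 7.69 and 7.48 in WT roots, and fell by 1.14 ± 0.17 (adjusted p = 0.0451). The sources used here give no function for these last 3 genes. In KO1 replicate 3 the signal was the lowest of the KO1 arrays for 6 of these 7 falls, NBR1 being the exception.

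Autophagy genes other than NBR1 did not pass the test. ATG8 genes encode the ubiquitin-like proteins that NBR1 binds, and 9 of them were measured. ATG8E (AT2G45170) differed most, by -0.99 ± 0.20 on the log2 scale (adjusted p = 0.13), and by -0.67 without WT replicate 1. ATG8F differed by -0.49 ± 0.19, APG8H by -0.39 ± 0.19, ATG8C by -0.37 ± 0.16 and APG8A by -0.31 ± 0.17. ATG8B, ATG8D, ATG8G and ATG8H lay between -0.20 and -0.03. All 9 log2 fold changes were below 0, none passed after adjustment, and the genes share arrays and related sequence. The median log2 fold change over all named probe sets was 0.00. ATG3, which conjugates ATG8 to lipid, differed by -0.16 ± 0.14. Of the 16 autophagy genes measured 0 rose and 1 fell, NBR1, and the median was -0.18.

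In lists with no call, the largest changes over 1 on the log2 scale did not reach the adjusted threshold. ERF53 (AT2G20880), an AP2/ERF factor gene, had 3.74, 4.45 and 3.41 in KO1 roots and 2.08 and 2.26 in WT roots, a difference of 1.70 ± 0.28 on the log2 scale (adjusted p = 0.0566). LSU2 (AT5G24660), a small protein gene known for its response to low sulphur, had 3.61, 3.96 and 4.23 in KO1 roots and 2.68 and 2.76 in WT roots, a difference of 1.21 ± 0.21 (adjusted p = 0.0669). EXLA1, an expansin-like cell wall protein gene, had 5.01, 5.49 and 4.18 in KO1 roots and 3.92 and 3.60 in WT roots, a difference of 1.13 ± 0.33 (adjusted p = 0.309). GTR1, a glucosinolate transporter gene, had 4.94, 5.65 and 4.32 in KO1 roots and 4.03 and 3.89 in WT roots, a difference of 1.01 ± 0.39 (adjusted p = 0.509). In all 4 genes every KO1 array was above both WT arrays, as it was in 2058 of all 18107 probe sets.

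Sugar and darkness genes were split. Of the 32 measured, SIP1 rose, 5 were higher and 3 were lower at the study's thresholds, and the median was -0.04. Of all 18107 probe sets 1.77% were higher and 1.33% lower at those thresholds. The platform's table named 22 of the 32, of which 2 were higher and 0 lower at those thresholds. TPPG, a trehalose-6-phosphate phosphatase gene, differed by 1.21 on the log2 scale, CT-BMY, a chloroplast beta-amylase gene of starch breakdown, by 0.95, and SWEET16, a vacuolar sugar carrier gene, by 0.71. The dark-inducible genes SEN1 (DIN1), DIN10 and BCE2 (DIN3) differed by -1.62, -0.93 and -0.76. SEN1 depended on WT replicate 1, with -0.97 without it. Without that array 3 were higher and 2 lower.

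Glucosinolate synthesis genes CYP79F2 and CYP79B2, which convert amino acids in the entry step of the pathway, differed by 0.95 and 0.88 on the log2 scale (adjusted p = 0.23 and 0.0578), and were the only 2 of 32 genes of that list at the study's thresholds, with a median of 0.14. Both had been named through the overexpressor tables, which named 6 of the 32. Of all 18107 probe sets 1.77% were higher at the study's thresholds. UGT74B1, a glucosyltransferase gene of the same pathway, differed by 0.82. In the sulphur list of 4 genes APS3, an ATP sulphurylase gene, differed by 0.88 (adjusted p = 0.478). Iron genes NRAMP1, a metal transporter gene, and BHLH100, a factor gene of iron deficiency, both differed by -0.65, and the KO1 and WT values of BHLH100 overlapped. NPR3, a salicylic acid receptor gene, differed by 0.94 and WRKY13 by 0.90. Among 47 calcium sensor and kinase genes SR1 (CIPK14), a kinase gene, differed by 0.78. None of these passed the adjusted test.

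In other lists no member met the study's thresholds. The 39 auxin genes had a median of -0.03 (log2), and medians are given in brackets for the 9 root hair genes (0.01), the 12 jasmonate genes (0.01), the 17 cell cycle genes (0.07) and the 12 heat shock genes (0.19). The 33 photosynthesis genes of nucleus and plastid had a median of -0.12, with all KO1 arrays below all WT arrays in 10, and 7 histone genes had a median of -0.21, with all 7 below 0. For comparison, of all 18107 named probe sets the KO1 arrays were all above WT in 2058 and all below in 2078. The median over these probe sets was 0.00.

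**Figure D3:**
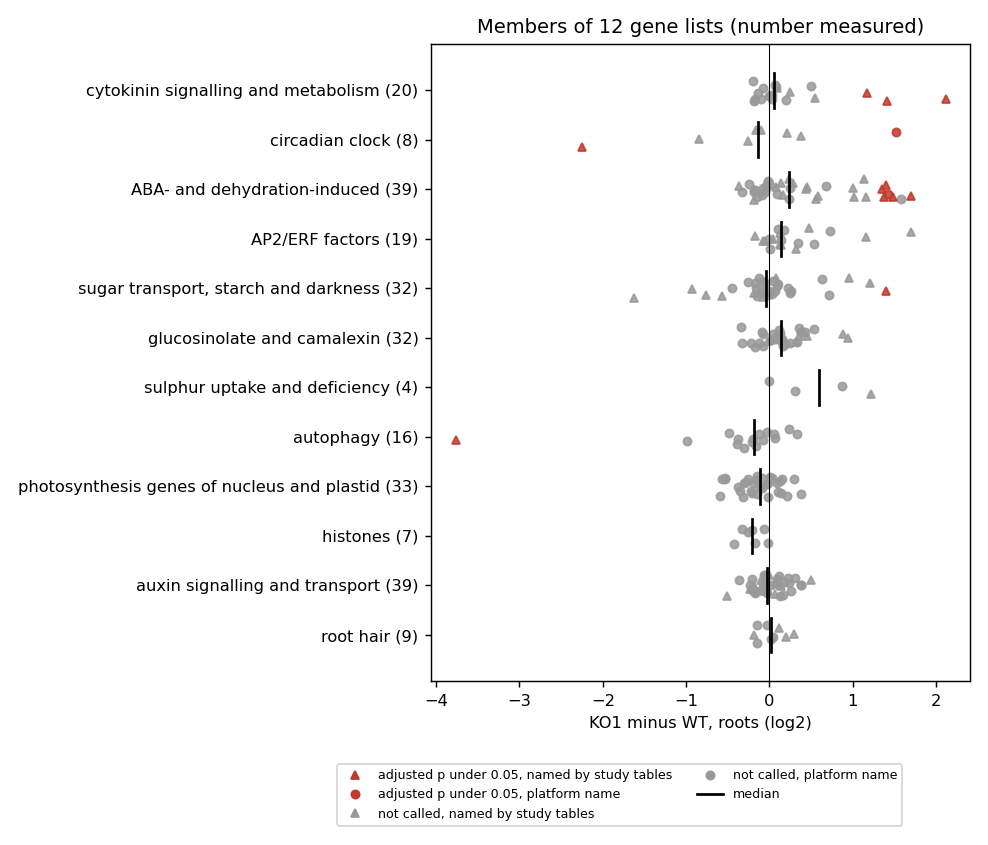
KO1 minus WT difference in roots (x axis, log2) of the members of 12 gene lists (y axis, number measured in brackets), with medians as black bars. Triangles are genes named through the study's overexpressor tables and circles those of the platform's table. Red marks genes past an adjusted p of 0.05, which lie in the cytokinin, clock, dehydration, sugar and autophagy lists while the medians stay near 0.

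How far the calls rest on a WT array is seen gene by gene. Without WT replicate 1 the 16 rises had log2 fold changes of 0.95 to 1.91 and the 7 falls of -3.68 to -1.03. The difference was smaller without that array for 19 of the 23 genes. WT replicate 1 was the lower WT array in 13 of the 16 rises and the higher in 6 of the 7 falls. LTI78, SIP1, CYP735A2 and bZIP58 were as large or larger without it.

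**Figure D4:**
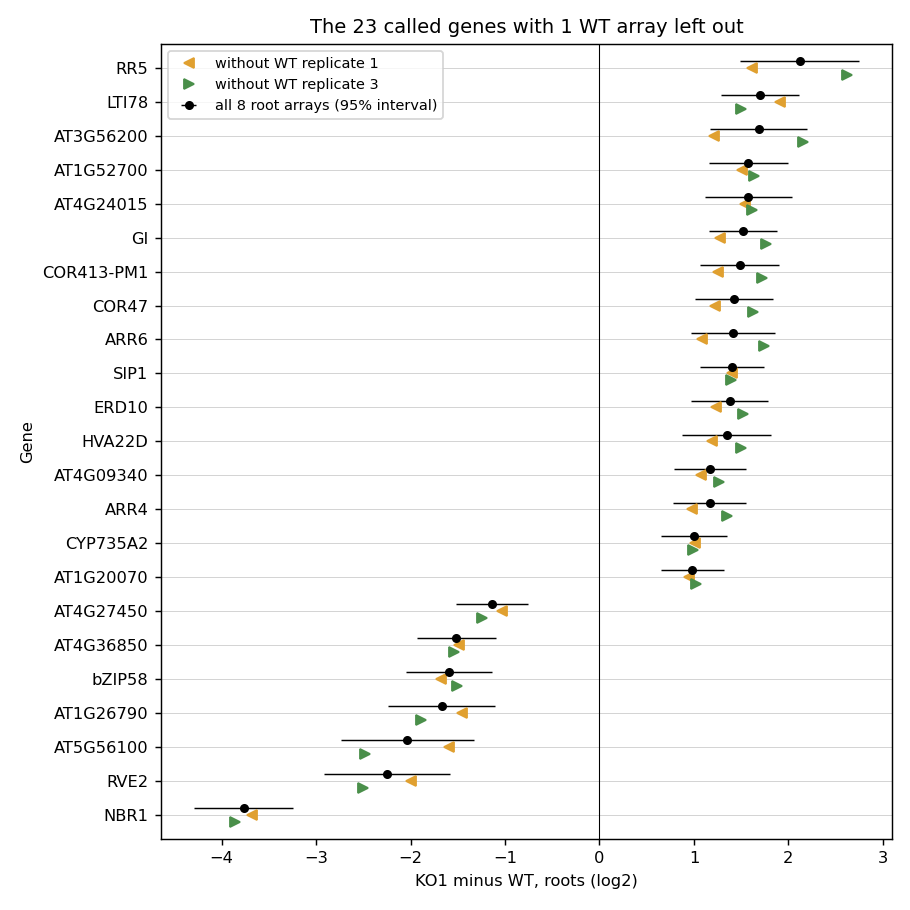
KO1 minus WT difference in roots (x axis, log2) of the 23 called genes (y axis), with all root arrays (black circles with 95% intervals), without WT replicate 1 (left-pointing triangles) and without WT replicate 3 (right-pointing triangles). No gene can change sign here, since in each all KO1 arrays lie beyond both WT arrays. RR5, AT3G56200 and AT5G56100 move the most.

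KO3 roots were compared with the same 2 WT arrays, so their differences from WT are not independent of those of KO1 and are given only side by side. RR5 differed from WT by 2.12 in KO1 and 1.86 in KO3, GI by 1.52 and 1.48 and LTI78 by 1.70 and 1.54 (log2). RVE2 differed by -2.25 and -2.35, bZIP58 by -1.59 and -1.71 and AT1G26790 by -1.67 and -1.95. KO3 also passed an adjusted p of 0.05 (limma) for 12 of the 16 rises and for the 7 falls. It did not for ARR4 (1.01, adjusted p = 0.0564), HVA22D (1.19, 0.0628), AT4G24015 (1.14, 0.0724) and ARR6 (0.96, 0.0942). The direct contrast of KO1 with KO3 uses no WT array. It gave 0 calls (0% of 18107) at an adjusted p under 0.05 by limma, 595 probe sets at an unadjusted p under 0.05, and 0 calls with an unmoderated model. Among the 23 genes KO1 minus KO3 ranged between -0.54, for NBR1, and 0.46, for ARR6. For NBR1 the 95% interval of that difference was -1.01 to -0.07, and for ARR6 it was 0.06 to 0.85. For GI it was -0.28 to 0.36, and for RR5 -0.31 to 0.82. Differences between the lines of up to these bounds are therefore not excluded.

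The KO1 difference was also set against that in shoots, where KO1 and WT had 3 arrays each. The difference between the tissues passed an adjusted p of 0.05 for 67 probe sets (0.37%), and for 4 of the 23 root calls. GI was higher in KO1 roots but lower in KO1 shoots, where it had 2.96, 4.19 and 4.04 in KO1 and 6.02, 5.92 and 6.05 in WT, a shoot difference of -2.27. AT4G24015, AT1G20070 and bZIP58 had low shoot signals in both lines, 1.13 to 2.87 in all. NBR1 fell in both tissues, with -4.55 in shoots, and the difference between the tissues was 0.78 (adjusted p = 0.413). AT1G26790 had -1.81 in shoots, against -1.67 in roots. RR5, ARR6 and ARR4 differed by 0.15, 0.03 and -0.24 in KO1 shoots. The test of the difference between tissues did not pass for them (limma, adjusted p = 0.159, 0.356 and 0.497). The shoot values of ARR6 and ARR4 rested on KO1 shoots replicate 1, their lowest array. ARR4 had 5.28, 7.72 and 8.03 in KO1 shoots and 7.56, 6.88 and 7.31 in WT shoots. ARR6 had 3.07, 4.86 and 4.80, against 4.16, 4.01 and 4.47. RR5 had 1.91, 3.27 and 2.44, against 2.40, 1.83 and 2.94. KO1 shoots replicate 1 stood apart, and not for stress genes alone. COR413-PM1 had 5.29 there, against 7.96 and 7.82 in the other KO1 shoots, and GI was lowest there too. Over the KO1 shoot arrays the photosynthesis genes averaged 8.12 to 9.58, against 9.57 to 9.62 in WT shoots. The comparison between tissues uses this array, and without it 140 probe sets passed the test of the difference.

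**Figure D5:**
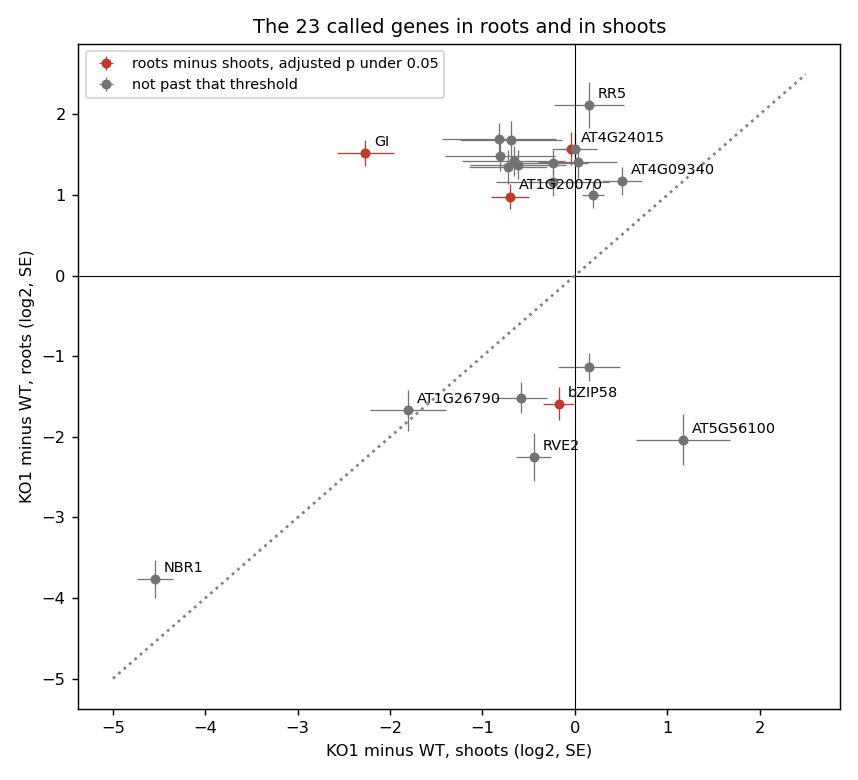
KO1 minus WT difference in roots (y axis, log2) against that in shoots (x axis, log2) for the 23 genes called in roots, with standard errors and a dotted line of equality. GI lies in the upper left, NBR1 near the line in the lower left, and the 4 genes in red passed the test of the difference between tissues.

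The called genes were also placed along the chromosomes. Of the 23, 9 lay on chromosome 1, where 4470 probe sets were tested, 6 on chromosome 4 (2576 tested), 5 on chromosome 5 (3956 tested), 2 on chromosome 3 (3513 tested) and 1 on chromosome 2 (2693 tested). Chromosome 4, which holds NBR1, had the fewest probe sets tested, and the spread of the calls over the chromosomes was not tested. Among the 10 annotated genes on each side of NBR1, 11 were measured, and their log2 fold changes ranged between -0.23 and 0.24 with no call. MOS1, the gene before NBR1, differed by 0.24 ± 0.17, and AT4G24700, the gene after it, by -0.15 ± 0.15. Within 100 genes on each side, 102 were measured and 2 rose, HVA22D 28 genes after NBR1 and AT4G24015 100 genes before it. AT4G24015 thus lay at the very edge of this window. At the study's thresholds 6 of the 102 were higher and 0 lower. Among all 18107 probe sets 0.0884% rose, and 1.77% were higher and 1.33% lower at those thresholds. Whether changes gather near NBR1 was not tested.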

How the data were processed

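The deposited values are log2 signals that the authors made with RMA in Transcriptome Analysis Console on the TAIR 10 genome; their versions and background settings are not given in the sources used here. RMA is meant to make the arrays' distributions alike, which hides any change shared by most transcripts, and the number of arrays limits the precision. In the deposited values the distributions were close but not identical. Medians of the root arrays were 2.61 to 2.67 and their standard deviations 1.91 to 2.05. WT roots replicate 1 had the smallest standard deviation. No column of unknown sample was present (0). Names came from the platform's table (17504 probe sets) and from 2 tables of the study, used for names only (603). Of the 17349 single-gene probe sets 17271 matched the RefSeq table.

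The 8 root arrays were fitted by limma 3.58.1 in R 4.3.3 (lmFit, eBayes), with p-values adjusted by Benjamini and Hochberg over 18107 probe sets. Intervals are 95%. Tables and figures used Python 3.11.15. On simulated arrays of this comparison with 18107 probe sets, the fit recovered 63% of the 2-fold changes and 96% of the 4-fold ones. It also made 8 false calls. Named are NBR1, up to 15 rises and 15 falls past the threshold with separate groups, list members past it, and, for a list with none, its largest change over 1 (log2). List members at the study's thresholds and further members and genes next to NBR1 were named after their values were seen. Lists were represented by each gene's brightest probe set. The members and the 47 lists were chosen with earlier results of these data known. Alternatives were other normalizations, filters, models and arrays left out. The columns of the study's own fold changes and p-values were not used.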

Additional observations from a re-analysis of the deposited data

Results flagged for a closer look

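The difference of KO1 from WT was not the same in roots and in shoots for 5 of the genes named, by the limma test of that difference over all 17 arrays (KO1 minus WT in roots, minus KO1 minus WT in shoots).

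GI had the largest difference between the tissues, 3.79 on the log2 scale (adjusted p = 0.000449), with every KO1 array above WT in roots and below WT in shoots. It was 3.55 without WT roots replicate 1 and 3.40 without KO1 shoots replicate 1, and passed the test in both cases. AT1G20070 had 1.68 (adjusted p = 0.0111), with -0.70 in shoots, and AT4G24015 had 1.61 (adjusted p = 0.00787), with -0.04 in shoots. Both lost the call without WT roots replicate 1 (adjusted p = 0.0944 and 0.065). bZIP58 had -1.42 (adjusted p = 0.0391), and LSU2, which did not pass the test in roots, had 1.81 (adjusted p = 0.0434). Without WT roots replicate 1 the adjusted p was 0.178 for bZIP58 and 0.261 for LSU2, and without KO1 shoots replicate 1 it was 0.00771 and 0.0315. AT4G24015 and bZIP58 had signals of 1.13 to 1.73 in all KO1 and WT shoots, near the lower end of the scale.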

How the results depend on the processing

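The count of higher and lower probe sets depended on the model and on the arrays. It was 25 higher over all probe sets, 5 higher and 2 lower over the platform's names alone, 0 and 1 with an unmoderated model, 0 and 1 with only KO1 and WT root arrays, 4 and 4 with all 17 arrays in 1 fit, 11 lower with trend and robust options, 4 lower with array weights, and 320 and 241 at the study's thresholds. Leaving out 1 array gave 0 to 38 higher and 1 to 24 lower: 1 and 1 without KO1 replicate 1, 4 and 3 without KO1 replicate 2, 38 and 5 without KO1 replicate 3, 0 and 1 without WT replicate 1, and 33 and 24 without WT replicate 3. Fewer arrays enter the spread in these fits; otherwise the cause was not tested. NBR1 kept its call except with the unmoderated model (log2 fold change -3.77, adjusted p = 0.408), where none of the 23 passed. Over all probe sets 20 of the 23 passed, without CYP735A2, HVA22D and AT5G56100. After quantile normalization AT1G20070, CYP735A2, HVA22D, AT4G27450 and AT5G56100 lost the call, and with array medians subtracted CYP735A2 did. None of the 27 genes followed through the alternatives changed direction. With arrays left out this was fixed beforehand, since the KO1 and WT arrays of these genes did not overlap. The list medians moved by more than a typical standard error in 7 of 660 values, among them the dehydration list over platform names (-0.06).

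Whether replicate numbers pair the root arrays was not settled. In their deviations from the group means, same-numbered KO1 and KO3 arrays correlated at -0.05, 0.04 and 0.01, KO1 and WT arrays at 0.21 and 0.14, and KO3 and WT arrays at 0.11 and 0.10, where the deviations of the WT pair mirror each other; the numbers were not taken as pairs, since not every correlation was over 0.1. With the replicate block 17 rose and 7 fell, and 19 of the 23 calls passed; RR5, ARR6, CYP735A2 and AT1G20070 did not. The difference between roots and shoots gave 67 calls, 63 with the replicate block, 117 after quantile normalization and 26 with an unmoderated model, and leaving out 1 array gave 18 to 141: 18 without WT roots replicate 1, 35, 40 and 35 without KO1 roots replicates 1, 2 and 3, 140 and 141 without KO1 shoots replicates 1 and 2, and 35 and 43 without WT shoots replicates 1 and 3. KO1 against KO3 gave 0 calls in every alternative run, the replicate block included.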
